A study of Homo sapiens with 21 samples.

Results

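RUNX1 binding sites were examined around 9 genes of early T-cell development: RAG1, RAG2, DNTT, PTCRA, CD1A, CD1B, CD1C, CD1D and CD1E. A site belonged to the set when the summit of a called peak, the base of its highest signal, lay in 1 of 4 windows of hg19. These were a window of 160 kb around RAG1 and RAG2 on chromosome 11, 66 kb around DNTT on chromosome 10, 35 kb around PTCRA on chromosome 6 and 200 kb over the CD1 genes on chromosome 1. Stretches of 100 bp on each side of every summit were merged into regions where they overlapped, over all 14 peak lists. The windows held 127 of the 190855 regions found on chromosomes 1 to 22 and X, and 564 of 791439 summits. Summits nearest the window edges lay 1020 to 9513 bp inside, with folds of 2.33 to 28.0, and those nearest beyond lay 467 to 20515 bp outside, with folds of 2.38 to 5.37 (fold is explained below). Windows were set by position alone, so a site within one may belong to a neighbouring gene. By the RefSeq table's gene order, neighbours are TRAF6 and IFTAP beside the RAG pair, BLNK and OPALIN beside DNTT, PEX39 and CNPY3 beside PTCRA, and OR10T2 beyond the CD1 genes.

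The study mapped RUNX1, a runt-domain transcription factor, by chromatin immunoprecipitation and sequencing in untreated Jurkat cells, a human T-cell acute lymphoblastic leukaemia line. Knock-in clones carried short epitope tags on RUNX1. Clones had R232fs (a frameshift) or Y287X (a stop codon), both truncating, or G365R (1 amino acid replaced). In these the HA tag was on mutant RUNX1 and the TY1 tag on wild-type RUNX1 in the same cells, whereas the WT clone had wild-type RUNX1 under either tag. Each mutant genotype had 2 single clones with 1 HA and 1 TY1 list each, the WT genotype had 1 clone with 1 list of each tag, and 7 control samples were not analysed here. A single clone can differ from its parent line in ways unrelated to the edit, so 2 clones of a genotype are a narrow model of it. Clone numbers are names within a genotype and link nothing between genotypes. The samples carry no gene expression, so the labelled cell type could not be checked against marker genes.

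The lists held 30563 to 86433 peaks (median 58259). Each peak carried the authors' fold enrichment, a linear ratio of signal at the summit over background, which is the value meant by fold below. The highest fold of a list ran from 174 to 369 in the R232fs and Y287X lists, against 61.0 to 89.3 in the G365R and WT lists, so the 2 kinds of list differ in scale. Folds are therefore given as they stand to describe a site within a list, and tests between lists used ranks. Peak lists do not hold sequencing depth, so no counting interval can be given.

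RAG1 and RAG2 form the recombinase that cuts antigen receptor genes at their recombination signals, and DNTT, terminal transferase, adds non-templated nucleotides at the joints. PTCRA, the pre-T-cell receptor alpha chain, pairs with a newly made T-cell receptor beta chain and lets developing thymocytes pass their first checkpoint. The CD1 proteins resemble class I histocompatibility molecules and present lipid antigens, and CD1A is a marker of cortical thymocytes. RUNX1 is needed for normal thymocyte development, and its runt domain binds DNA motifs around the hexamer TGTGGT.

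RefSeq's promoter table, on GRCh38.p14, gave 10 windows of 300 bases (250 before to 50 after a gene start) for 8 of the 9 genes. CD1A and CD1D had 2 starts each, and CD1B had no entry. TGTGGT, searched on both strands (ACCACA on the other), occurred in 2 of these 10 windows, against 4591 of all 35116 promoters in the table (13.1%). The variant TGCGGT, whose other strand reads ACCGCA, was in 0 of the 10 and in 2561 of all (7.29%). The 2 promoters that hold the hexamer are shown 5′ to 3′ on the gene's strand with the match in capitals. They are CD1A from its first start, chr1:158248086-158248385 on the plus strand, with the match beginning at base -105 from the start, and CD1E, chr1:158353644-158353943 on the plus strand, with the match beginning at base -230.
CD1A: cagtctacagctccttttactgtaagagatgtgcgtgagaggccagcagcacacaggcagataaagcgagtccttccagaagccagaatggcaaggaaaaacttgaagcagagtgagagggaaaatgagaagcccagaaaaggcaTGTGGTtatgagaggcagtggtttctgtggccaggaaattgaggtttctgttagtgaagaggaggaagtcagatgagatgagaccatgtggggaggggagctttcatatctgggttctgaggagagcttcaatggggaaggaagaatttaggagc
CD1E: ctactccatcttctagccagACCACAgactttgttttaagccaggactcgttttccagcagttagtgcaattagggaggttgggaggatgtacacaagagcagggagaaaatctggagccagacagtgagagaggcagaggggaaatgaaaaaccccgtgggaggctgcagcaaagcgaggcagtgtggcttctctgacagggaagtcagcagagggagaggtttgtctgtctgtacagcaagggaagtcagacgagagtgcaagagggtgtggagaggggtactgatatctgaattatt
A match is a description of the letters and not a binding site. The peaks are on hg19 and these windows on another build, so whether a summit lies in them was not determined.

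RUNX1 summits were found in all 4 windows in every list, but most sites were seen in few lists. Of the 127 regions, 8 (6.30%) were in all 14 lists, where the background over all regions of the genome was 5.92%. In at least 10 lists there were 25 (19.7%, background 16.0%), and in a single list 48 (37.8%, background 42.3%). These shares lay near the background when every list was used whole. With lists cut to equal length (30563 peaks each) they were 7.35% against 11.8% in all 14 lists, 19.1% against 26.8% in at least 10 and 41.2% against 27.6% in a single list. The regions of a single list had folds from 1.72 to 6.38 with a median of 3.46, and 16 of the 48 came from the first R232fs HA list. The RAG window had 29 regions, 9 of them in at least 10 lists and 3 in all 14. DNTT had 40, 5 and 1, PTCRA had 7, 2 and 1, and the CD1 cluster had 51, 9 and 3. Summits per list ran from 5 to 19 in the RAG window (median 10), 3 to 18 at DNTT (median 8.5), 2 to 4 at PTCRA (median 2) and 8 to 29 in the CD1 cluster (median 16). The 25 regions in at least 10 lists are called sites here and are numbered by position within each window. A site is named after its window, and which gene it belongs to was not determined.

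**Figure D1:**
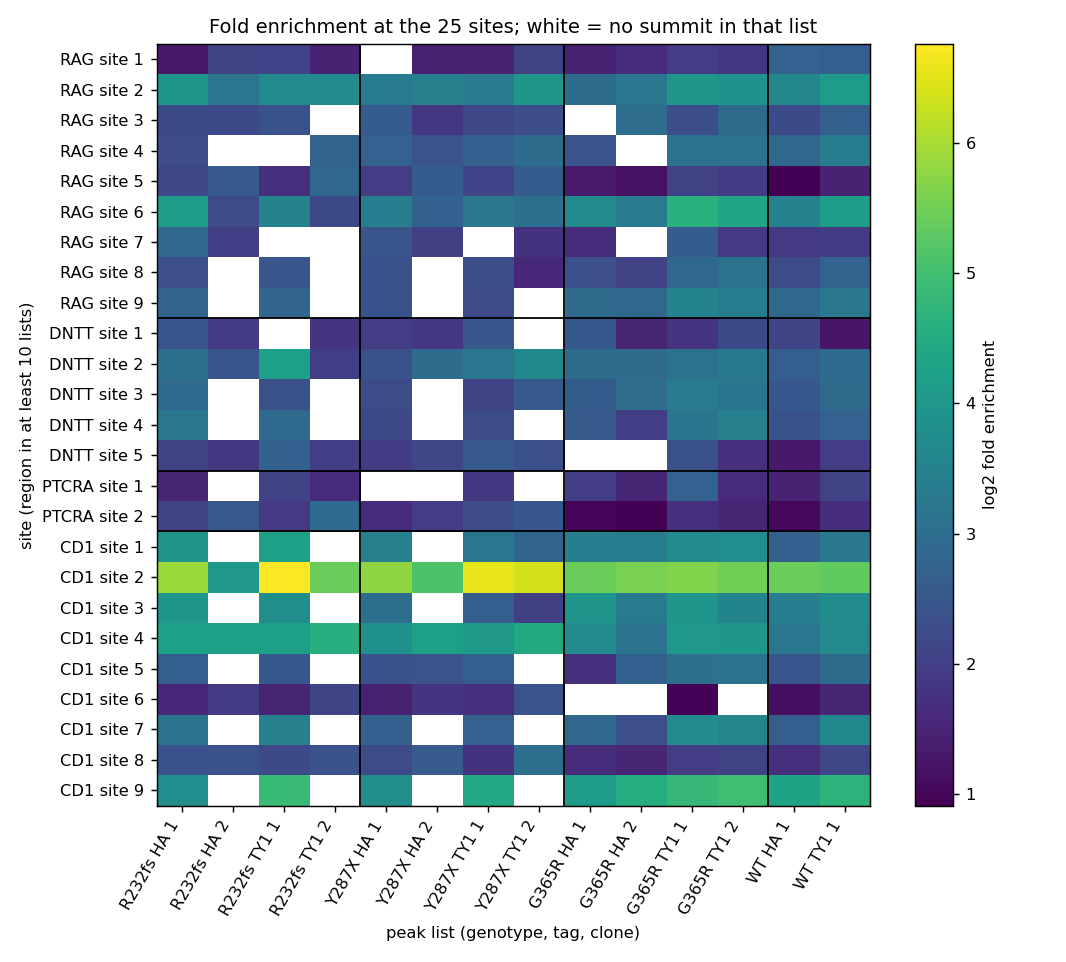
The log2 of fold enrichment (colour) at the 25 sites (vertical axis) in each of the 14 peak lists (horizontal axis, by genotype, tag and clone), white where a list has no summit. White cells gather in the columns of the second R232fs and second Y287X clones, and CD1 site 2 is the brightest line of the plot.

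In the window around RAG1 and RAG2, sites 2, 5 and 6 were in all 14 lists. RAG site 6 (chr11:36588195-36588491) had folds of 17.3 and 11.5 (HA, TY1) in the first R232fs clone and 4.78 and 4.63 in the second. In Y287X it had 10.8 and 9.45 in the first clone and 6.59 and 8.27 in the second. The G365R clones gave 13.1 and 25.2, then 10.1 and 20.3, and the WT clone 11.1 and 18.3. The second R232fs clone was lowest under both tags, and the TY1 lists of G365R and WT lay above every list of the truncating genotypes. Ranked among the 11291 regions that all lists shared, the site stood at percentiles of 83.8 to 94.5 in the G365R lists but at 19.4 (HA) and 8.33 (TY1) in the second R232fs clone.

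RAG site 2 (chr11:36509670-36510008) was more even. Its folds were 16.1 and 13.1 (HA, TY1) in the first R232fs clone, 9.17 and 13.2 in the second, 9.83 and 9.93 in the first Y287X clone and 11.1 and 16.1 in the second. In the G365R clones they were 7.84 and 16.01, then 9.24 and 14.6, and in WT 12.3 and 17.8. The ranges of all genotypes overlapped. RAG site 5 (chr11:36531657-36531952) had lower folds, with 4.52 and 3.30, then 5.95 and 7.22 in R232fs, and 3.92 and 4.27, then 6.12 and 6.18 in Y287X. G365R gave 2.51 and 4.21, then 2.26 and 3.88, and WT 1.89 and 2.80. Its HA folds in the truncating clones all lay above those of G365R and WT.

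The other 6 RAG sites were in 10 to 13 lists. Site 9 (chr11:36639830-36640180), with folds of 4.74 to 11.6 (median 7.34), was absent from both tags of the second R232fs clone and of the second Y287X clone and present in all other lists. Site 8 (chr11:36619576-36619847; 2.97 to 8.49, median 5.08) was absent from 3 of those same 4 lists. Site 7 (chr11:36596739-36597184) was in both R232fs HA lists, at 7.12 and 3.99, and in neither R232fs TY1 list. It was also in both Y287X HA lists (5.46 and 4.04), the second Y287X TY1 list (3.39), the first G365R HA list (3.16), both G365R TY1 lists (6.11 and 3.76) and both WT lists (3.76 and 3.83). Sites 1, 3 and 4 had median folds of 3.58, 4.92 and 6.84 and lacked 1, 2 and 3 lists.

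DNTT site 2 (chr10:98059197-98059472) was the only DNTT region in all 14 lists. It had folds of 8.34 and 18.6 (HA, TY1) in the first R232fs clone and 5.38 and 3.97 in the second. Y287X gave 5.24 and 9.25, then 7.87 and 12.5, while G365R gave 7.88 and 8.66, then 7.66 and 9.64, and WT 6.32 and 7.80. The G365R clones were close to each other, and the R232fs clones spanned the whole range of the site. DNTT site 5 (chr10:98099824-98100302) was in all lists but the 2 G365R HA lists. Its folds were 4.35 and 6.59, then 3.63 and 3.97 in R232fs, 3.87 and 5.95, then 4.47 and 5.06 in Y287X, 5.17 and 3.23 in the G365R TY1 lists, and 2.49 and 3.91 in WT. DNTT site 4 (chr10:98072878-98073427; 4.01 to 10.9, median 6.34) was absent from all 4 lists of the second R232fs and Y287X clones. Site 3 (chr10:98064786-98065080; 4.30 to 9.98, median 6.23) was absent from 3 of those lists, and site 1 (chr10:98055852-98056439; 2.41 to 5.77, median 3.86) from the first R232fs TY1 list and the second Y287X TY1 list.

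The PTCRA window had the fewest sites, both of low fold. Their highest −log10 q in any list was 120 (site 1) and 427 (site 2), a maximum and not a typical value. Among the shared regions, site 2 stood at percentiles from 4.27 (second G365R HA list) to 37.1 (second R232fs TY1 list). PTCRA site 2 (chr6:42897034-42897319), in all 14 lists, had folds of 4.11 and 3.69 (HA, TY1), then 5.79 and 7.79 in R232fs, and 3.19 and 4.88, then 3.90 and 5.62 in Y287X. In G365R it had 2.03 and 3.23, then 1.88 and 2.90, and in WT 2.06 and 3.17. Under each tag every truncating list lay above the G365R and WT lists. PTCRA site 1 (chr6:42883597-42883851) had 2.89 and 4.12 in the first R232fs clone, 3.11 in the TY1 list of the second, 3.57 in the first Y287X TY1 list, 3.91 and 6.73, then 2.88 and 3.09 in G365R and 2.78 and 4.19 in WT. It was absent from the second R232fs HA list and from 3 of the 4 Y287X lists.

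In the CD1 cluster, CD1 site 2 (chr1:158217911-158218155) had the highest median fold of the 25 sites, 46.7. Its folds were 59.2 and 108.4 (HA, TY1) in the first R232fs clone and 16.3 and 43.2 in the second, 55.7 and 93.4 in the first Y287X clone and 35.1 and 81.8 in the second. The G365R clones had 43.6 and 50.5, then 48.0 and 45.3, and WT had 43.4 and 40.5. The ratio of HA to TY1 fold was 0.546 and 0.378 in the R232fs clones, 0.596 and 0.429 in Y287X, 0.863 and 1.06 in G365R and 1.07 in WT. Over the 11291 shared regions the median of that ratio was 0.914 and 0.775 in R232fs, 0.793 and 0.734 in Y287X, 0.647 and 0.728 in G365R and 0.719 in WT. The site's ratio thus lay below the median of its clone in all 4 truncating clones and above it in both G365R clones and WT. The site stood at percentile 87.9 among shared regions in the second R232fs HA list and at 96.2 to 99.7 in the others.

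CD1 site 4 (chr1:158255586-158255990) had folds of 19.1 and 18.8, then 18.9 and 23.8 in R232fs, and 14.4 and 16.5, then 18.7 and 22.1 in Y287X. G365R gave 13.4 and 16.4, then 8.77 and 16.1, and WT 9.21 and 12.7. The second R232fs and Y287X clones were not low at this site, whose lowest fold, 8.77, was in the second G365R HA list. CD1 site 8 (chr1:158323416-158323837) had 5.20 and 4.62, then 5.24 and 5.13 in R232fs, 4.74 and 3.42, then 5.99 and 8.18 in Y287X, 3.21 and 3.94, then 2.92 and 4.19 in G365R, and 3.32 and 4.44 in WT. Its TY1 folds overlapped between genotypes, while its HA folds in the truncating clones lay above those of G365R and WT. Ranked among the shared regions, its HA values overlapped too. The percentiles were 33.6 and 25.6 in R232fs, 37.6 and 36.8 in Y287X, 29.3 and 24.6 in G365R and 33.8 in WT.

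CD1 site 9 (chr1:158336663-158336889) was a site of high fold that some clones lacked. Its folds were 13.8 and 28.7 in the first R232fs clone, 13.98 and 21.7 in the first Y287X clone, 17.5 and 28.0, then 23.2 and 31.4 in G365R, and 19.9 and 25.8 in WT. No list of the second R232fs or second Y287X clone had a summit there, and in the other 10 lists its summits lay within 26 bp of each other. CD1 site 7 (chr1:158304459-158304761; 5.02 to 13.3, median 8.16) was absent from the same 4 lists. CD1 sites 1 (chr1:158173893-158174214; median 10.7) and 3 (chr1:158244569-158244879; median 11.8) lacked 3 of these 4 lists, all but the second Y287X TY1 list. Site 5 (chr1:158259830-158260320; median 6.30) lacked both lists of the second R232fs clone and the second Y287X TY1 list. Site 6 (chr1:158274092-158274440; median 2.98) showed another pattern, absent from 3 G365R lists and present in all others.

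**Figure D2:**
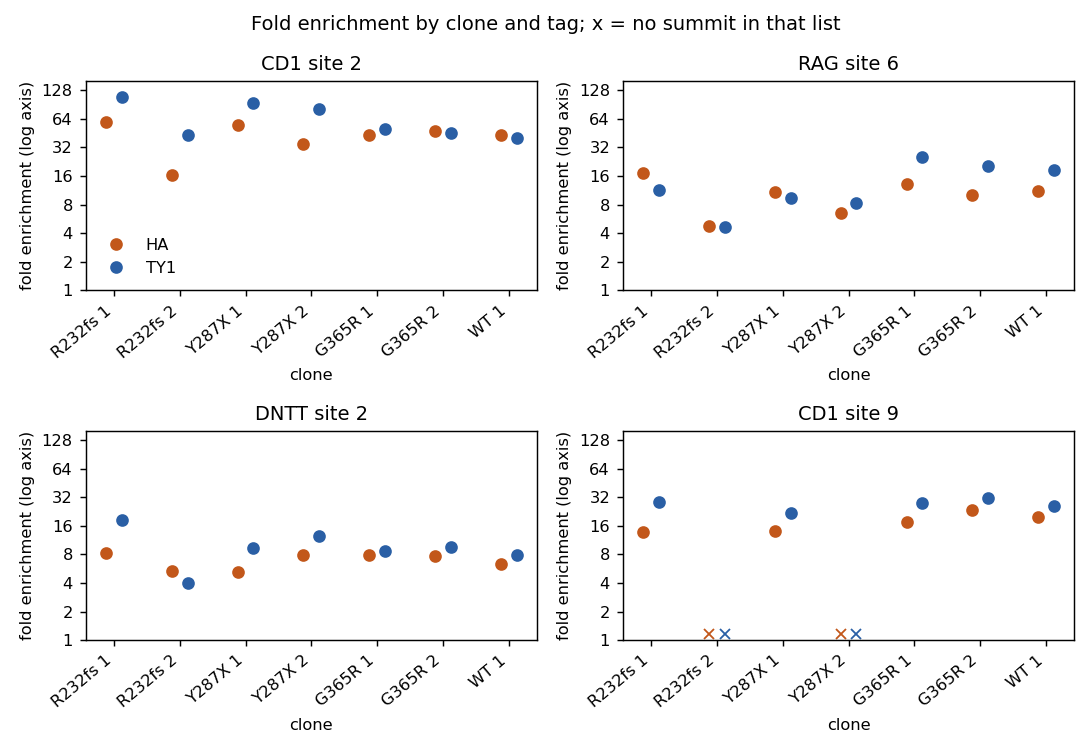
Fold enrichment (log axis) of the HA list (orange) and the TY1 list (blue) of each clone at CD1 site 2, RAG site 6, DNTT site 2 and CD1 site 9, 1 point per list, with a cross where the list has no summit. At CD1 site 9 both tags of the second R232fs and second Y287X clones are crosses, and at RAG site 6 these clones hold the lowest points.

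Most absences fell on 2 clones, under both tags. Of 52 absences of the 25 sites over the 14 lists, 38 were in the 4 lists of the second R232fs and second Y287X clones, and a called peak without a summit in the region covered the site in 1 of the 52. The second R232fs clone lacked 11 of 25 sites under HA (44%) and 11 under TY1 (44%), whereas it lacked 10.5% and 10.4% of all regions in at least 10 lists. The second Y287X clone lacked 9 (36%) under HA and 7 (28%) under TY1, against 8.52% and 4.48% of all such regions. In the first R232fs clone the numbers were 0 (HA) and 3 (TY1), and in the first Y287X clone 2 and 1. The G365R HA lists lacked 3 (12%) and 4 (16%) sites where they lacked 30.7% and 35.1% of all such regions, and the G365R TY1 lists lacked 0 and 1. The 2 WT lists lacked 0 of 25 sites, against 30.5% (HA) and 2.81% (TY1) of all such regions. These sites were chosen by how many lists have them, as were the regions they are set against, so the percentages describe the lists and carry no test.

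**Figure D3:**
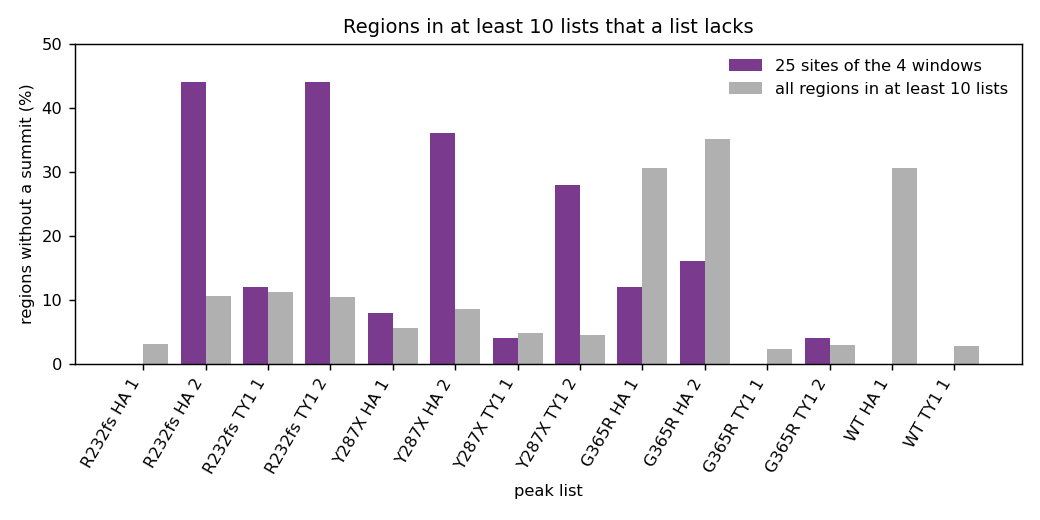
Share of regions without a summit (vertical axis, percent) in each peak list (horizontal axis), for the 25 sites of the 4 windows (purple) and for all regions in at least 10 lists (grey). The purple bar is far above the grey one in the second R232fs and Y287X clones, and below it in the HA lists of G365R and WT.

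Presence was then compared between clones over all 127 regions, a comparison added after the data had been seen. In both lists of the first R232fs clone and neither list of the second there were 14 regions (11.02%), where 2.69% of all regions did so. The reverse held for 2 (background 5.38%). For Y287X the counts were 5 (3.94%, background 1.58%) and 6 (4.72%, background 6.55%), the first above its background and the second below it. With lists of equal length the Y287X counts were 4 (5.88%, background 4%) and 0 (background 4.04%). For G365R the counts with whole lists were 1 (background 0.471%) and 2 (background 0.725%). Of 17 regions in all other 10 lists, 4 were in none of the second R232fs and Y287X lists, which is 3.15% of the 127 against a background of 0.369%. These 4 were CD1 sites 7 and 9, DNTT site 4 and RAG site 9. No region was in all 6 G365R and WT lists and no truncating list (0, background 0.252%), and none was in all 8 truncating lists and no G365R or WT list (0, background 0.176%).

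Splits by tag within a genotype were few. A region counts as HA-only in a genotype when both of its HA lists have it and its TY1 lists both lack it, and as TY1-only in the reverse case. R232fs had 3 HA-only regions (background 3.98%) and 0 TY1-only regions (background 0.270%). Y287X had 2 (background 0.679%) and 1 (background 1.20%). In G365R, 1 region was in the HA lists only (background 0.240%) and 7 in the TY1 lists only (background 7.85%). The number of HA-only or TY1-only regions moved with which clone stood for the genotype. Read over the second R232fs clone alone, 10 regions were HA-only (9.09% of the members then left, background 21.2%), and over the first clone alone 38 (31.4%, background 26.6%).

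Regions with such a split that were in at least 4 lists had folds both above and below the median fold of their lists. Those medians ran from 3.48 to 4.75. The R232fs HA-only regions were RAG site 7 and 2 DNTT regions. The DNTT region at chr10:98053310-98053593 had folds of 4.47 and 3.59 in the R232fs HA lists, 3.61 in the second G365R TY1 list and 3.76 in WT HA. The region at chr10:98062701-98063041 had 3.80 and 4.14 in the R232fs HA lists, 3.39 in the second Y287X HA list and 4.33 in the second Y287X TY1 list. A CD1 region (chr1:158300910-158301299) was in both Y287X HA lists, at 5.24 and 2.76, and in neither Y287X TY1 list. It also had 4.46 in the first R232fs TY1 list, 6.40 in the second G365R HA list, 5.61 and 4.57 in the G365R TY1 lists, and 3.67 and 4.11 in WT, and in 3 of the lists that lacked a summit a called peak covered it.

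A RAG region (chr11:36652373-36652840) was in the TY1 lists and not the HA lists of both Y287X (3.38 and 3.18) and G365R (4.02 and 5.42). In R232fs it was in the first clone under both tags (HA 5.29, TY1 4.18), and in WT likewise (HA 4.65, TY1 3.41). The other G365R TY1-only regions in at least 4 lists were DNTT site 5 and 3 further regions. One in the CD1 cluster (chr1:158332435-158332792) had 4.40 and 3.97 in G365R TY1, 3.86 in the first R232fs HA list and 3.69 in WT TY1. One at DNTT (chr10:98045203-98045571) had 5.73 and 3.97 in G365R TY1 and 3.46 (HA) and 4.44 (TY1) in the first R232fs clone. Another DNTT region (chr10:98059733-98059991) lay next to site 2 and had 5.61 and 5.99 in G365R TY1, 3.71 in the first Y287X HA list and 6.82 in WT HA. A called peak covered this last region in 7 of the 10 lists without a summit there.

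Summits in the windows were also counted against the length of each list. The first R232fs clone had 66 HA and 34 TY1 summits in the windows, which is 0.0850% and 0.0848% of its lists, and the second had 26 and 19 (0.0301% and 0.0321%). Y287X had 33 and 30 in its first clone (0.0636% and 0.0603%) and 29 and 38 in its second (0.0429% and 0.0466%). G365R had 38 and 48 (0.124% and 0.0837%), then 37 and 61 (0.121% and 0.0987%), and WT had 50 and 55 (0.133% and 0.0925%). Both lists of the second R232fs clone had the smallest shares, although that clone's HA list was the longest of all with 86433 peaks. Within the truncating clones the shares under HA and TY1 differed less than those of the 2 clones of a genotype. Mean summit numbers were 46.0 ± 28.3 (SD, n = 2) for R232fs HA and 26.5 ± 10.6 (SD, n = 2) for R232fs TY1, and 31.0 ± 2.83 and 34.0 ± 5.66 (SD, n = 2 each) for Y287X. They were 37.5 ± 0.707 and 54.5 ± 9.19 (SD, n = 2 each) for G365R. With 2 lists against 2, the smallest 2-sided p that an exact permutation test allows is 0.333, so no such test was run.

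**Figure D4:**
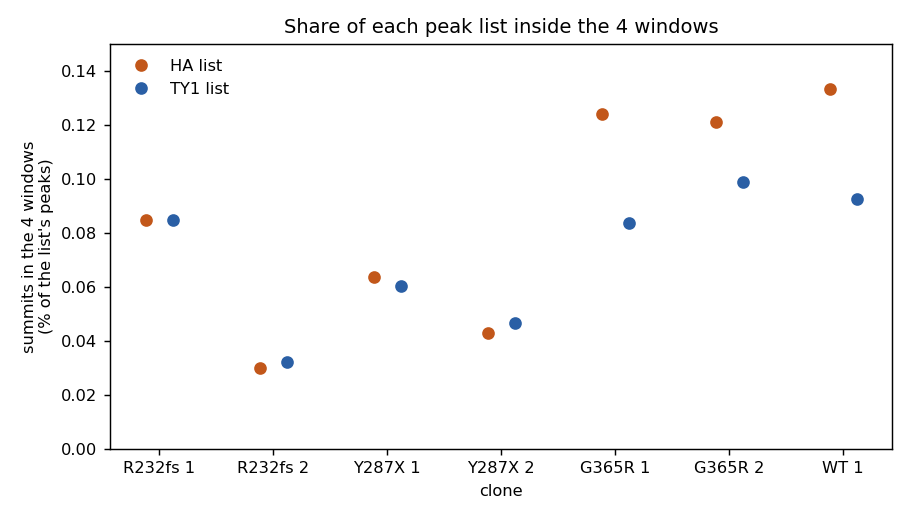
Share of each list's summits that lie in the 4 windows (vertical axis, percent of the list's peaks) for the HA list (orange) and the TY1 list (blue) of each clone (horizontal axis), 1 point per list. Within each truncating clone the points nearly coincide, and the second R232fs clone is lowest at 0.0301% and 0.0321%.

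The strength of binding was tested at the 8 sites in all 14 lists, where the fold was ranked among the 11291 shared regions of a list and turned into normal scores. Changes are given in score units. With limma over all shared regions, and no term for the clone, 0 of 8 sites were called for HA against TY1 in R232fs (background 0%), in Y287X (background 0%) or in G365R (background 0%), at a Benjamini-Hochberg adjusted threshold of 0.05. The difference of the HA minus TY1 change between the truncating genotypes and G365R gave 0 as well (background 0%). Unadjusted p below 0.05 was reached by 1368, 463, 590 and 1177 of the shared regions in these 4 comparisons, and by 0 of the 8 sites in each.

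HA and TY1 lists of one clone come from the same cells, and a fit with the clone as a replicate block compares them within clones. With a term for every clone and a tag difference for every genotype, few residual degrees of freedom were left to estimate the spread of a region. The WT pair added none, and the spread was pooled over the mutant genotypes and moderated over all regions. The block fit called 1 of 8 sites in R232fs, where 21.7% of all shared regions were called, 0 in Y287X (background 0.815%) and 0 in G365R (background 4.08%). The counts over all regions moved when 1 clone was left out, in every genotype also when it was a clone of another genotype. A left-out clone leaves fewer lists to estimate the spread, so the counts cannot show whether 1 clone carried the calls. Unadjusted p was below 0.05 at 2 of the 8 sites in R232fs and at 0 in the other mutants. The site called was RAG site 6. Its HA score was higher than its TY1 score by 0.62 ± 0.15 (SE) in R232fs, with an adjusted p of 0.0225 by limma. The change was positive in both R232fs clones (0.71 and 0.52) and both Y287X clones (0.43 and 0.12) and negative in both G365R clones (-0.23 and -0.41). In fits without either R232fs clone the call was lost (adjusted p 0.136 and 0.0785), and it was lost with ranks of −log10 p (adjusted p 0.0738). Without the clone term the same change had an SE of 0.70 and an adjusted p of 0.768.

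The change of RAG site 6 was larger in the truncating genotypes than in G365R by 0.77 ± 0.18 (SE), with an adjusted p of 0.0242 in the limma fit with the replicate block. It was 1 of 8 sites called in that comparison, where 17.1% of all shared regions were called (1929, against 42 without the first G365R clone). The call was lost without the first Y287X clone (adjusted p 0.0651), without the first G365R clone (0.119) and without the second (0.150). RAG site 5 had a difference in the same direction of 0.68 ± 0.24 (SE, adjusted p 0.0885) and CD1 site 2 one in the other direction of -0.48 ± 0.17 (SE, adjusted p 0.0833), both short of the threshold in that fit.

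**Figure D5:**
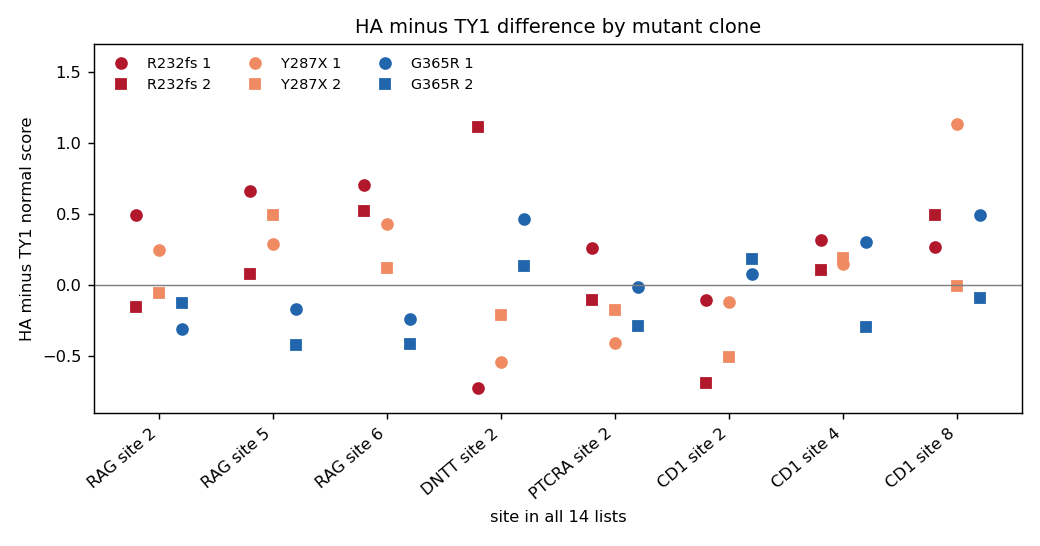
HA minus TY1 difference of normal scores (vertical axis) in each of the 6 mutant clones at the 8 sites in all 14 lists (horizontal axis), 1 point per clone, by genotype (colour) and clone (circle for the first, square for the second). At RAG site 6 the 4 truncating clones lie above 0 and both G365R clones below, while at DNTT site 2 the R232fs clones lie on opposite sides at -0.72 and 1.12.

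Truncating and G365R lists of the same tag were also compared. For HA, 0 of 8 sites were called (background 9.53%), and for TY1, 0 of 8 (background 4.57%). Unadjusted p was below 0.05 at 1 site under HA and at 2 under TY1, against 3358 and 2829 of the 11291 shared regions. PTCRA site 2 had the lowest adjusted p under HA, with a score higher in the truncating lists by 0.81 ± 0.28 (SE, adjusted p 0.0827 by limma), and 0.77 ± 0.28 (SE, adjusted p 0.122) under TY1. RAG site 6 differed by -1.70 ± 0.60 (SE, adjusted p 0.121) under TY1, the largest difference of the 8 sites under either tag, and by -0.92 ± 0.60 (SE, adjusted p 0.324) under HA. These comparisons are between clones, and the different scale of the truncating lists stands beside them. The part of that scale in the result was not tested. Without a clone term, the fit also counts the HA and TY1 lists of a clone as independent when it estimates the spread. Their deviations from group means correlated (r of 0.503 to 0.792 by genotype), so the SEs and calls rest on fewer independent lists than the fit counts.

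The 2 clones of a genotype were then compared, each by its HA and TY1 lists, in the fit with the clone as a term. This comparison was added after the data had been seen and concerns 2 clones, not 2 conditions. In R232fs, 5 of 8 sites were called, where 45.0% of all shared regions were. In the second clone RAG site 6 was lower by 1.99 score units (change -1.99 ± 0.15 SE, adjusted p 0.000112 by limma). DNTT site 2 changed by -1.81 ± 0.35 (SE, adjusted p 0.00520) and CD1 site 2 by -1.22 ± 0.14 (SE, adjusted p 0.000531). PTCRA site 2 and RAG site 5 were higher by 0.58 ± 0.19 (SE, adjusted p 0.0365) and 0.56 ± 0.20 (SE, adjusted p 0.0471). Leaving out another mutant clone gave an adjusted p of 0.0430 to 0.0524 for PTCRA site 2 and 0.0601 to 0.0651 for RAG site 5.

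In Y287X, 2 of 8 sites were called between clones, against 22.1% of all shared regions. These were RAG site 6, at -0.87 ± 0.15 (SE, adjusted p 0.00602), and CD1 site 2, at -0.68 ± 0.14 (SE, adjusted p 0.0120), both lower in the second clone by limma. In G365R 0 of 8 sites were called between clones (background 2.75%). Unadjusted p was below 0.05 at 0 of them, against 2448 of the 11291 shared regions. The G365R change was -0.29 ± 0.15 (SE, adjusted p 0.299 by limma) at RAG site 6 and 0.04 ± 0.14 (SE, adjusted p 0.893) at CD1 site 2. Whether the clone difference itself differs between genotypes was not tested. Which clone a list came from and what else differed between its cultures cannot be told apart.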

How the data were processed

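RUNX1 binding was read from 14 narrowPeak lists, 1 per library and not pooled, of 21 samples in the series. Per the submitters' processing notes, the tools were MACS2 2.2.7.1, Bowtie2 2.2.9 and CASAVA 1.8 and the build was hg19. Settings of the peak caller and the controls given to it were not found in the labels. For each peak the authors deposited its fold over background (a ratio), its p-value and q-value as −log10, a score that was not used here, and the position of the summit.

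Peaks on chromosomes 1 to 22 and X were kept (1.41% to 2.17% of a list was left out). Windows of 100 bp on each side of all summits were merged at 1 bp of overlap, and a region was present in a list that had a summit inside it. At the 11291 regions of all lists, fold was ranked within each list, turned into normal scores and compared with limma 3.58.1 (trend, moderated, Benjamini-Hochberg over all regions, threshold 0.05) in R 4.3.3, with 8 groups of genotype and tag. WT, with 1 list per tag, borrowed the spread of the other groups. As a check of the code, the fits with and without a clone term were run on simulated scores with known shifts. For the fit without the clone term these held no differences between clones, so the check does not bear on its calls here.

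Equal replicate numbers mean the same clone, since the clone names in the track lines match, per the file headers. Deviations from group means of the HA and TY1 lists of a clone correlated over regions (r = 0.792 for R232fs, 0.702 for Y287X, 0.503 for G365R). The samples are therefore paired by clone, and a fit with the clone as a replicate block is given where it changes a call. Alternatives were ranks of −log10 p, regions in at least 10 lists, a window of 250 bp, a −log10 q of at least 5, lists cut to 30563 peaks each, and each clone left out. Python 3.11.15, numpy 2.4.6, pandas 2.3.3, scipy 1.17.1 and matplotlib 3.10.9 did the rest.

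Described in every list were regions in all 14 lists, the 2 regions of each window in most lists (ties by median fold), regions of at least 4 lists split by tag within a genotype, and regions called by limma. DNTT site 5 came in by both the second and the third part. CD1 site 9 and the other sites were added after their values were seen. The genes and windows were chosen with earlier results of these data known. No hg19 sequence or annotation was used, so sites are placed by position, and a planned list of partner genes was left out.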

Additional observations from a re-analysis of the deposited data

Results flagged for a closer look

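At 4 of the 8 sites in all 14 lists, the HA minus TY1 score differed in opposite directions between every clone of a truncating genotype and every clone of G365R. Over the 11291 shared regions this held for 37.5%. By genotype it held at 3 of 8 sites for R232fs, against 29.6% of all shared regions, and at 4 of 8 for Y287X, against 27.1%. With 2 clones on each side these differences for single genotypes were not tested. RAG site 6 was higher under HA in both R232fs clones and lower in both G365R clones, a difference of 0.94 between the means (0.62 and -0.32), and for Y287X against G365R the difference was 0.60 (0.28 and -0.32). At RAG site 5 the differences were 0.67 for R232fs (0.37 and -0.29) and 0.68 for Y287X (0.39 and -0.29). CD1 site 2 went the other way, at -0.52 for R232fs (-0.39 and 0.13) and -0.44 for Y287X (-0.31 and 0.13). DNTT site 2 did so for Y287X only, at -0.67 (-0.37 and 0.30), and its R232fs clones lay on opposite sides of 0.

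For the truncating genotypes together against G365R the difference itself was tested in the fit with the clone as a replicate block. RAG site 6 passed at 0.77 ± 0.18 (SE, adjusted p 0.0242 by limma), with 4 of 4 truncating clones above 0 and 2 of 2 G365R clones below. These signs come from the same scores as the test and are the pattern by which the site was flagged, so they are not separate from it. In that comparison 17.1% of all shared regions were called. The call was lost without the first Y287X clone and without either G365R clone (adjusted p 0.0651, 0.119 and 0.150), and without the clone term the adjusted p was 0.831. The G365R and R232fs or Y287X lists also differ in the scale of their folds, and the part of this in the difference was not tested.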

How the results depend on the processing

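With the clone as a replicate block, the paired fit called 2445 regions for HA against TY1 in R232fs, 92 in Y287X, 461 in G365R and 1929 for truncating minus G365R, where the fit without it called 0 in each. Under the other settings, left-out clones included, the paired counts ran from 374 to 2511, 0 to 704, 1 to 4461 and 42 to 3804. It changed the call of 1 of the 8 shared sites, RAG site 6. The HA and TY1 comparisons of truncating with G365R lists cannot take the block, since their clones differ in genotype. Ranks of −log10 p in place of fold gave 10, 47 and 282 calls in R232fs, G365R and truncating minus G365R without the block. For truncating minus G365R they gave 4470 under HA and 2740 under TY1, against 1076 and 516 with fold. Between clones they gave 3290 in R232fs and 1324 in G365R, against 5080 and 311. Regions in at least 10 lists, with each list ranked over those it had, gave 3867 (HA) and 278 (TY1) calls, and 168 between the G365R clones. With windows of 250 bp that last count was 95. Leaving out each clone gave 1 to 2667 calls under HA, the fewest without the second G365R clone and the most without the first R232fs clone. Under TY1 it gave 2 (without either G365R clone) to 2639 (without the first R232fs clone). Between clones it gave 4760 to 4788 in R232fs, 2017 to 2767 in Y287X and 62 to 280 in G365R, the fewest of the last without the second Y287X clone.

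Among the regions of the 4 windows, lists of equal length (30563 peaks) left 68 regions in any list and 5 in all 14 (7.35% against 11.8% of all regions). They left 1 HA-only region in R232fs (background 1.63%), 0 in Y287X (1.12%) and 4 in G365R (2.42%). TY1-only regions were 0 in Y287X (background 1.2%) and 0 in G365R (3.92%). Lists of equal length also left 0 regions of the second clone only in R232fs (background 5.84%) and Y287X (4.04%). They left 0 of the first only in G365R (background 1.82%). With windows of 250 bp the HA-only count in Y287X was 1 (background 0.701%), as was that of the second R232fs clone only (background 5.87%). A −log10 q of at least 5 left 1 HA-only region in Y287X, 0 in G365R, 0 TY1-only in Y287X, 2 of the second Y287X clone only and 0 of the first G365R clone only. Leaving out each clone gave 110 to 127 regions in any list and 8 to 9 in all. It gave 3 to 38 HA-only and 0 to 6 TY1-only regions in R232fs, 2 to 9 and 1 to 16 in Y287X, and 1 to 7 and 7 to 31 in G365R, since 1 clone then stands for the genotype. The 14 regions of the first R232fs clone only were 15, 11 and 13 with windows of 250 bp, the −log10 q minimum and equal length. In the site fits, RAG site 5 and PTCRA site 2 lost their calls between the R232fs clones with ranks of −log10 p (adjusted p 0.0830 and 0.0721 by limma). No change of a called site turned its sign under these settings, but the balance of several counts turned. With equal length the HA-only and TY1-only regions of G365R went from 1 and 7 to 4 and 0, and the regions of the first and second Y287X clone only from 5 and 6 to 4 and 0. Paired G365R calls were 280 higher and 181 lower under HA with fold ranks, 1017 and 1463 with ranks of −log10 p, and 146 and 4315 over regions in at least 10 lists. Over those regions, paired calls for truncating minus G365R were 3465 and 339 in place of 966 and 963, HA calls of truncating minus G365R 3403 and 464 in place of 639 and 437, and calls between G365R clones 47 and 121 in place of 131 and 180. The median change of all regions there was -0.37 (G365R, paired), 0.35 (truncating minus G365R, paired) and 0.32 (HA). Paired Y287X calls, 30 and 62, were 308 and 396 with ranks of −log10 p and 11 and 50 over regions in at least 10 lists. Calls between R232fs clones, 2781 and 2299, were 1460 and 1830 with ranks of −log10 p. The comparisons and counts by clone, and the counts with a clone left out, were chosen after seeing the data. Beyond the construction of each alternative, the cause of these changes was not tested. A missing summit means that no peak was called, and how much signal lay there below the caller's threshold is not known.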
